A study of Caenorhabditis elegans with 12 samples.

Results

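The glucuronosyltransferase (UGT) and glutathione transferase (GST) genes of Caenorhabditis elegans were followed in whole gravid adults by total RNA sequencing. A member was any gene row named ugt, gst, gsto or gstk with a number, which gave 114 of the 45836 gene rows, 65 of them UGT and 49 GST genes. The GST genes comprised 44 named gst, 3 named gsto (omega class) and 2 named gstk (kappa class). The rule used names alone and no measured value. Each of 4 groups had 3 libraries. F3 animals were N2 wild type whose forebears had spent 5 generations at 25 °C. They were moved back to 20 °C as L4 larvae, bred there for 3 generations and collected 72 to 76 h after eggs were plated. F0 animals were that ancestral N2 population, collected after 54 to 56 h at 25 °C. The set-25 animals were strain MT17463 with the allele set-25(n5021), kept at 20 °C and collected after 72 to 76 h. Control animals were N2 kept at 20 °C and handled alongside F0 and F3. Every replicate came from 3 plates of 1500 eggs and is called biological in the labels. F0 animals differed from F3 and set-25 animals in both temperature and hours of growth, which cannot be told apart. The labels give no hours for the control animals. The set-25 protocol names no wild type grown beside the mutant, and its libraries carry a separate block of library numbers. The mutation and the batch of libraries cannot be told apart either.

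UGT enzymes sit in the membrane of the endoplasmic reticulum and attach a sugar, taken from a UDP-sugar, to small fat-soluble molecules. GST enzymes join the tripeptide glutathione to reactive compounds such as the aldehydes that form when lipids are oxidised. Both reactions make their substrates more water-soluble, and ABC transporters then carry the products out of the cell. In worms, many genes of both families are active in the intestine, and several GST genes respond to SKN-1, the relative of the mammalian Nrf regulators.

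Expression spanned a wide range in control animals. Levels are CPM (counts relative to library size after TMM scaling), and 72 members averaged at least 1 CPM in control libraries, 35 of them at least 10 CPM, with 42 under 1 CPM. On the scale of CPM per kilobase of exon, gst-1 was the highest member in control at 265.6 ± 1.69 (SD, n = 3). It was followed on that scale by gst-7 at 171 ± 1.02, gst-27 at 69.7 ± 4.25, ugt-62 at 61.0 ± 6.72 and gst-26 at 38.3 ± 0.773. The ranges of gst-27 and ugt-62 overlapped, whereas gst-1 and gst-7 each stood above the next member in every control library. ugt-64 and gst-36 came next at 37.4 and 37.2 CPM per kilobase, with ranges that overlapped their neighbours. Levels of single members carry a pair of limits. Of all values of members, 55.9% were not whole numbers (tolerance 1e-06), as can happen where reads with several matches are split, so members with near-identical sequence can share reads. In addition, exons of 20 members overlap a gene on the other strand and those of 6 a gene on the same strand, and whether counting used strand is not given.

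Of the 114 members, 99 had enough counts to be tested (59 UGT and 40 GST) within a fit over 14466 genes. The 15 untested members held between 3 and 83 counts over all 12 libraries. They were gst-8, gst-17, gst-18, gst-19, gst-23, gst-25, gst-34, gst-37, gsto-2, ugt-10, ugt-18, ugt-27, ugt-34, ugt-35 and ugt-56. gst-8 encodes an enzyme that acts on 4-hydroxynonenal, an aldehyde from oxidised lipids, and had 6 counts in F3, 11 in F0, 4 in set-25 and 8 in control libraries in total. The tested members gst-14, gst-31, ugt-33 and ugt-57 would have failed the filter on low counts without the libraries of 1 group.

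Wild-type libraries held 28217840 to 35483865 counts with 3.43 to 4.93% in ribosomal RNA. The 3 set-25 libraries held 22682534, 26289581 and 10678819 counts with 11.7, 4.01 and 26.3% in ribosomal RNA. Over all tested genes, with ribosomal RNA genes not taken out, they differed more from one another than replicates of other groups. Their chi-square per degree of freedom was 64.03 to 242, against 18.7 to 41.3 in F3, 5.61 to 5.78 in F0 and 4.03 to 4.58 in control. The part of ribosomal RNA content in these chi-square values was not tested. The set-25 gene itself was at 59.1, 59.3 and 50.7 CPM in set-25 libraries, against 69.8, 65.9 and 66.8 CPM in control libraries. No source names the lesion of n5021, and the level of set-25 is therefore no check of the genotype.

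In F0 animals, UGT and GST genes changed in both directions, and the larger changes were rises, mostly of UGT genes. In F0, 26 members were higher and 16 lower than in control at an edgeR quasi-likelihood adjusted p under 0.05 over all genes tested ("called"), and 57 were not called. Members called made up 42.4% of those tested, where 28.7% of all tested genes were called, 16.7% higher and 12% lower. UGT genes had 20 higher and 10 lower of 59, and GST genes 6 higher and 6 lower of 40. The median log2 fold change was 0.10 over the tested members and 0.01 over all tested genes. Of the 99 members, 11 were called at least 2-fold higher and 0 at least 2-fold lower, where 6.21% of all tested genes were called at least 2-fold higher and 1% at least 2-fold lower. Without the 4 members that depended on 1 group to pass the filter, 25 were higher, 10 of them at least 2-fold, and 16 lower. In whole animals, fewer cells of a type and less RNA per cell cannot be told apart. 

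**Figure D1:**
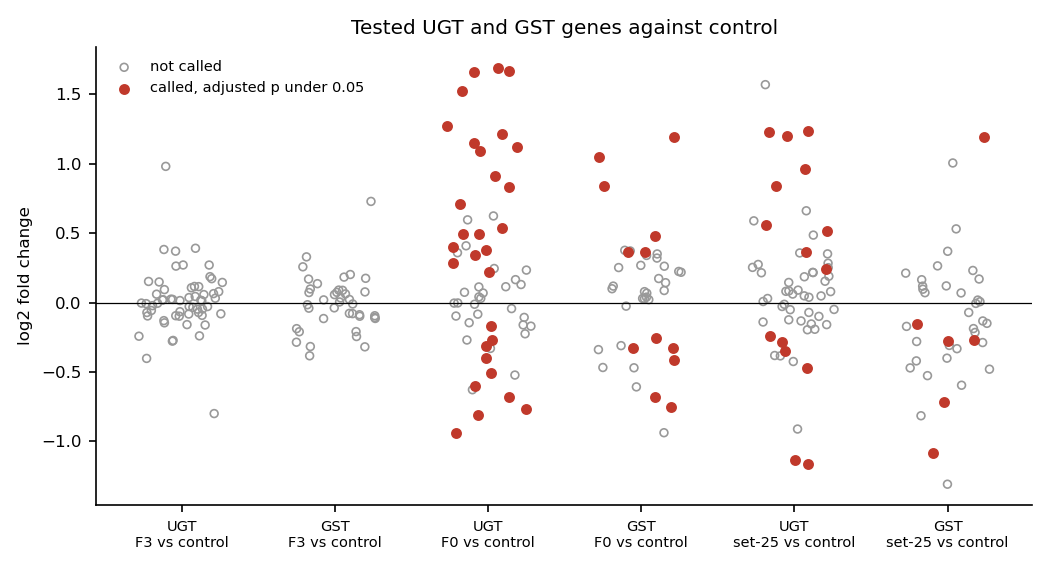
Log2 fold change of each tested UGT and GST gene in F3, F0 and set-25 animals against the shared control libraries (y axis), by family (x axis). Filled points were called (edgeR adjusted p under 0.05) and open points were not. No point is filled for F3, and the filled UGT points for F0 reach 1.69 above and -0.94 below 0.

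Marker genes of tissues also moved with the F0 group, where 16.7% of all tested genes were called higher and 12% lower. Of 12 intestinal markers, 5 were lower and 1 higher in F0, with a summed level of 2104 to 2239 CPM in F0 and 2495 to 2544 CPM in control. Of 10 epidermal markers, 3 were higher and 0 lower, at 1506 to 1637 CPM in F0 and 1248 to 1267 CPM in control. Of 10 muscle markers, 3 were higher and 0 lower, at 3327 to 3666 CPM in F0 and 2797 to 3109 CPM in control. All 8 tested of 10 sperm markers were higher, at 38.7 to 53.5 CPM in F0 and 2.49 to 9.17 CPM in control. Whether sperm markers passed the filter on low counts only through F0 libraries was not tested. Of 10 germline markers, 1 was higher and 3 lower, at 4227 to 4451 CPM in F0 and 4546 to 4639 CPM in control, and 0 of 10 neuronal markers were called, at 161 to 168 CPM in F0 and 156 to 160.2 CPM in control. The germline calls were not stable. None was lower without F0 library 2 and 1 without control library 1, and the higher one was lost without F0 library 1 or 3 or control library 1 or 2. The intestinal marker called higher, ges-1, was lost without F0 library 2 or control library 1, and act-5, called lower, without F0 library 3. The epidermal col-10 lost its call without F0 library 1 or control library 2 or 3. The muscle marker unc-15 lost its call without F0 library 1 or control library 1. No marker of any list was at 0 in all libraries. The part of these shifts in the levels of UGT and GST genes was not tested.

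Among the UGT genes that rose in F0, ugt-53, ugt-43 and ugt-54 changed most among members with at least 50 counts on average in F0. ugt-53 was at 8.06, 12.8 and 8.78 CPM in F0 libraries, against 2.77, 2.69 and 3.86 CPM in control libraries (log2 fold change 1.66 ± 0.17 (SE), edgeR adjusted p = 1.91e-06). ugt-43 was at 2.21, 1.94 and 2.74 CPM in F0, against 0.711, 0.785 and 0.623 CPM in control (log2 fold change 1.69 ± 0.23 (SE), edgeR adjusted p = 3.71e-05). ugt-54 was at 2.000, 2.03 and 1.597 CPM in F0, against 0.711, 0.617 and 0.623 CPM in control (log2 fold change 1.53 ± 0.26 (SE), edgeR adjusted p = 0.000258). All 3 had every F0 library above every control library, and all 3 were low in control, at under 4 CPM.

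The UGT genes ugt-6, ugt-32, ugt-51 and ugt-52 also exceeded a 2-fold difference and kept their calls whichever library was left out. ugt-6 was at 6.41, 6.65 and 6.16 CPM in F0 libraries and 2.595, 3.08 and 2.93 CPM in control libraries (log2 fold change 1.15 ± 0.13 (SE), edgeR adjusted p = 5.68e-06). ugt-32 was at 3.88, 2.33 and 3.14 CPM in F0 and 1.46, 1.18 and 1.68 CPM in control (log2 fold change 1.12 ± 0.20 (SE), edgeR adjusted p = 0.000431). ugt-51 was at 3.47, 3.996 and 4.39 CPM in F0 and 1.99, 2.08 and 1.49 CPM in control (log2 fold change 1.09 ± 0.21 (SE), edgeR adjusted p = 0.00102). These 3 were again separated by group in every library. The remaining gene of the 4, ugt-52, had few counts, with 0.941, 1.19 and 1.14 CPM in F0 and 0.356, 0.421 and 0.623 CPM in control (log2 fold change 1.21 ± 0.28 (SE), edgeR adjusted p = 0.0032).

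Other UGT genes rose by smaller factors, among them the higher-expressed ugt-44, ugt-47 and ugt-17. ugt-44 was at 41.3, 33.1 and 47.6 CPM in F0 libraries, against 22.7, 20.6 and 21.7 CPM in control libraries (log2 fold change 0.91 ± 0.14 (SE), edgeR adjusted p = 0.000823). Its means were 40.7 ± 7.27 CPM in F0 and 21.7 ± 1.05 CPM in control (SD, n = 3 each). No F0 library was within the control range. ugt-47 was at 40.7, 40.8 and 35.2 CPM in F0 and 26.3, 29.4 and 26.9 CPM in control (log2 fold change 0.50 ± 0.10 (SE), edgeR adjusted p = 0.00194). ugt-17 was at 32.2, 29.8 and 30.3 CPM in F0 and 19.5, 23.3 and 22.6 CPM in control (log2 fold change 0.49 ± 0.10 (SE), edgeR adjusted p = 0.00131). Neither gene had an F0 library within the control range. ugt-30 was at 5.41, 4.17 and 4.68 CPM in F0 and 2.77, 2.66 and 2.55 CPM in control (log2 fold change 0.84 ± 0.22 (SE), edgeR adjusted p = 0.00853). ugt-5 was at 6.47, 7.51 and 6.501 CPM in F0 and 4.41, 3.76 and 4.36 CPM in control (log2 fold change 0.71 ± 0.13 (SE), edgeR adjusted p = 0.000379). ugt-65 was at 5.32, 4.59 and 4.68 CPM in F0 and 2.95, 3.65 and 3.42 CPM in control (log2 fold change 0.54 ± 0.12 (SE), edgeR adjusted p = 0.00336). In these 3 genes too the groups were apart. The remaining UGT genes with calls that no left-out library ended were ugt-26 and ugt-23, at log2 fold changes of 0.40 and 0.34.

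**Figure D2:**
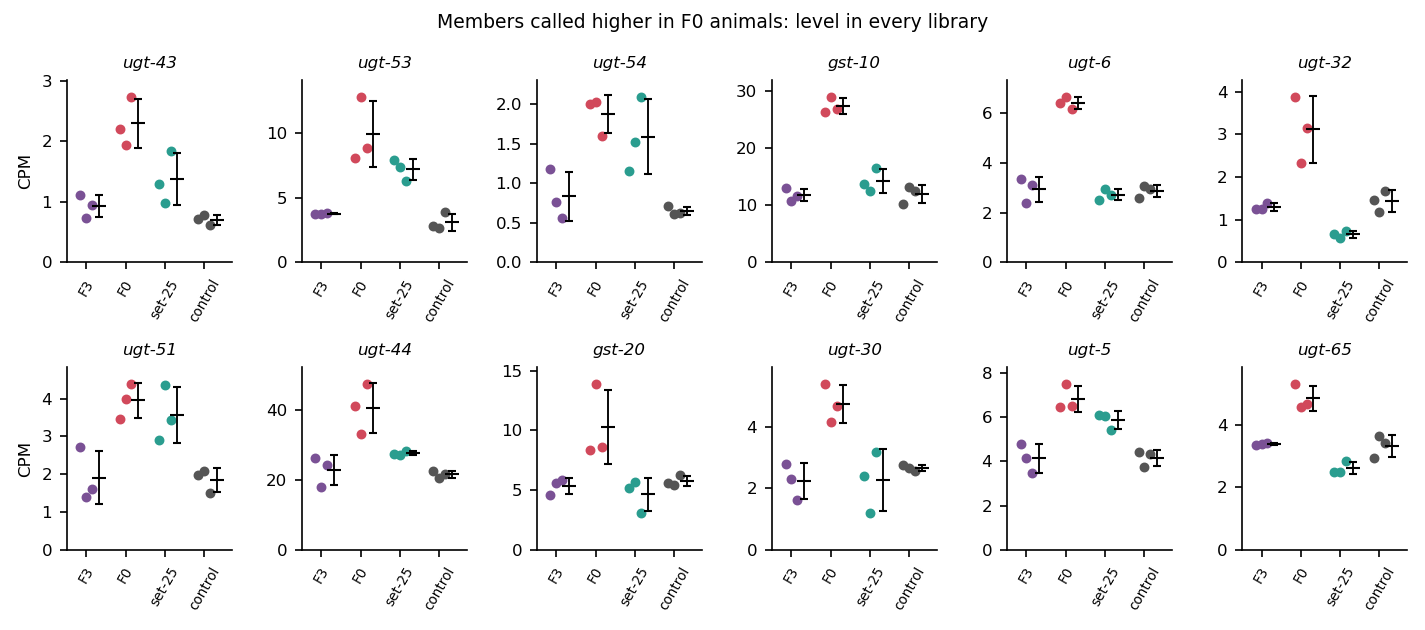
Level (CPM) of the 12 members with the largest called rise in F0 and a mean of at least 50 counts there, in every library of the 4 groups. Points are libraries, and the bar beside them is the mean with its SD (n = 3). F0 libraries lie above all control libraries in each panel, and F3 libraries lie below F0 in all of them.

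The largest GST rise was in gst-10, which encodes another enzyme that conjugates 4-hydroxynonenal. gst-10 was at 26.3, 29.05 and 26.9 CPM in F0 libraries, against 10.2, 13.2 and 12.5 CPM in control libraries (log2 fold change 1.19 ± 0.10 (SE), edgeR adjusted p = 9.49e-08). The means were 27.4 ± 1.46 CPM in F0 and 11.9 ± 1.57 CPM in control (SD, n = 3 each), and the groups were far apart. gst-5 acts on the same aldehyde and was not called. It was at 15.6, 18.01 and 15.1 CPM in F0 and 15.5, 16.04 and 15.9 CPM in control (log2 fold change 0.04 ± 0.08 (SE), edgeR adjusted p = 0.762), with a 95% interval of the log2 difference of -0.13 to 0.21. gst-20 was at 8.35, 13.9 and 8.61 CPM in F0 and 5.62, 5.38 and 6.26 CPM in control (log2 fold change 0.84 ± 0.20 (SE), edgeR adjusted p = 0.00611), with F0 library 2 above the other 2.

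Calls were less secure for the other members that were higher in F0. gst-42, the zeta-class enzyme of tyrosine breakdown (maleylacetoacetate isomerase), was at 14.8, 19.5 and 16.1 CPM in F0 and 12.2, 13.5 and 13.4 CPM in control (log2 fold change 0.36 ± 0.09 (SE), edgeR adjusted p = 0.00505). Its call was lost without F0 library 2 (log2 fold change 0.23). gstk-1, a kappa-class enzyme found in mitochondria and peroxisomes, was at 18.8, 27.2 and 19.8 CPM in F0 and 16.9, 16.7 and 17.7 CPM in control (log2 fold change 0.36 ± 0.12 (SE), edgeR adjusted p = 0.0341). Leaving out F0 library 2 or any 1 control library ended that call, with log2 fold changes of 0.17 to 0.38 in the fits that did. F0 library 2 was the highest of its group in both genes. The call of gst-6 (0.48) was lost without F0 library 2, control library 1 or control library 2 (0.39 to 0.45). gst-2 averaged 29.3 counts in F0 and lost its call (1.05) without F0 library 2 or 3 or control library 1 or 3 (0.76 to 1.07 over fits that lost it). ugt-15 (1.27) lost its call without F0 library 1, where it stood highest (0.88). ugt-33 passed the filter only with its F0 libraries, where it was high, so its call supports nothing. It averaged 11.7 counts in F0 and 3.33 in control and lost its call (1.67) without F0 library 1 or 3 or control library 1 or 2 (1.32 to 1.70). ugt-11 (0.38) and ugt-49 (0.28) each lost the call without any 1 of 4 libraries, at 0.29 to 0.37 and 0.24 to 0.26. For ugt-11 these were F0 libraries 1 and 3 and control libraries 1 and 3, and for ugt-49 F0 libraries 1 and 2 and control libraries 1 and 3. ugt-50 (0.22) lost it without F0 library 1 or 3 or any control library (0.17 to 0.22). Other alternative fits ended calls too, and the ranges include them. By DESeq2 the calls of gst-2, ugt-33, ugt-11 and ugt-50 were lost. With a replicate block, and with no filter on low counts, those of ugt-11 and ugt-50 were lost. Fits to only the 6 libraries compared lost those of gstk-1 and ugt-33.

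The members that fell in F0 included highly expressed ones of both families. gst-7, the second highest member per exon length, was at 94.8, 96.2 and 96.3 CPM in F0 libraries, against 127, 127 and 129 CPM in control libraries (log2 fold change -0.41 ± 0.04 (SE), edgeR adjusted p = 4.19e-07). ugt-62, the UGT gene highest per exon length, was at 67.3, 54.9 and 59.5 CPM in F0, against 113, 106 and 90.7 CPM in control (log2 fold change -0.77 ± 0.08 (SE), edgeR adjusted p = 4.4e-05). Both had F0 libraries entirely below control. gst-27 was at 39.1, 44.6 and 40 CPM in F0 and 48.9, 55.1 and 51.1 CPM in control (log2 fold change -0.33 ± 0.07 (SE), edgeR adjusted p = 0.0014). gst-26, its neighbour on the chromosome, was at 20.9, 23.5 and 21.7 CPM in F0 and 25.8, 26.8 and 26.3 CPM in control (log2 fold change -0.26 ± 0.07 (SE), edgeR adjusted p = 0.00727).

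Several lower-expressed members also fell. ugt-1 was at 3.29, 5.79 and 3.59 CPM in F0 and 6.897, 9.14 and 8.16 CPM in control (log2 fold change -0.94 ± 0.18 (SE), edgeR adjusted p = 0.00104). Its adjacent gene ugt-2 was at 7.53, 6.65 and 5.93 CPM in F0 and 11.8, 11.2 and 12.2 CPM in control (log2 fold change -0.81 ± 0.10 (SE), edgeR adjusted p = 1.03e-05). ugt-19 was at 5.82, 5.82 and 6.76 CPM in F0 and 10.7, 9.56 and 9.22 CPM in control (log2 fold change -0.68 ± 0.11 (SE), edgeR adjusted p = 0.000189). F0 and control libraries did not overlap for any of the 3. gst-22 was at 2.29, 2.39 and 2.34 CPM in F0 and 4.44, 4.04 and 3.36 CPM in control (log2 fold change -0.75 ± 0.14 (SE), edgeR adjusted p = 0.000682). gsto-1, an omega-class enzyme known for a role in stress resistance, was at 2.76, 3.04 and 1.996 CPM in F0 and 4.34, 4.37 and 3.798 CPM in control (log2 fold change -0.68 ± 0.16 (SE), edgeR adjusted p = 0.00434). Its exons overlap kle-2 on the other strand, a condensin gene at 142 CPM in F0 and 147 CPM in control that was not called (log2 fold change -0.05). ugt-61 was at 10.03, 8.23 and 9.29 CPM in F0 and 13.1, 14.5 and 11.5 CPM in control (log2 fold change -0.51 ± 0.10 (SE), edgeR adjusted p = 0.00117). ugt-28 and ugt-12 were called at log2 fold changes of -0.27 and -0.17.

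The 4 remaining lower calls were each lost when certain single libraries were left out. ugt-24 was at 1.12, 1.52 and 1.05 CPM in F0 and 2.13, 1.79 and 1.68 CPM in control (log2 fold change -0.60 ± 0.21 (SE), edgeR adjusted p = 0.0433), and lost its call without F0 library 1 or 3 or any control library (-0.68 to -0.51). ugt-25 was at 17.97, 15.7 and 18.5 CPM in F0 and 23.6, 21.4 and 24.03 CPM in control (log2 fold change -0.40 ± 0.14 (SE), edgeR adjusted p = 0.0475). Its call was lost whichever of the 6 libraries was left out (-0.47 to -0.35). gst-39 was at 6.56, 7.34 and 6.67 CPM in F0 and 8.25, 9.17 and 8.34 CPM in control (log2 fold change -0.33 ± 0.10 (SE), edgeR adjusted p = 0.0237), and lost its call without F0 library 1, F0 library 3 or control library 2 (-0.32 to -0.29). ugt-39 (-0.31) lost its call without F0 library 1 or 2 or any control library (-0.35 to -0.25). DESeq2 also ended the calls of ugt-24 and ugt-39, and a replicate block that of ugt-25, and the ranges include those fits.

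**Figure D3:**
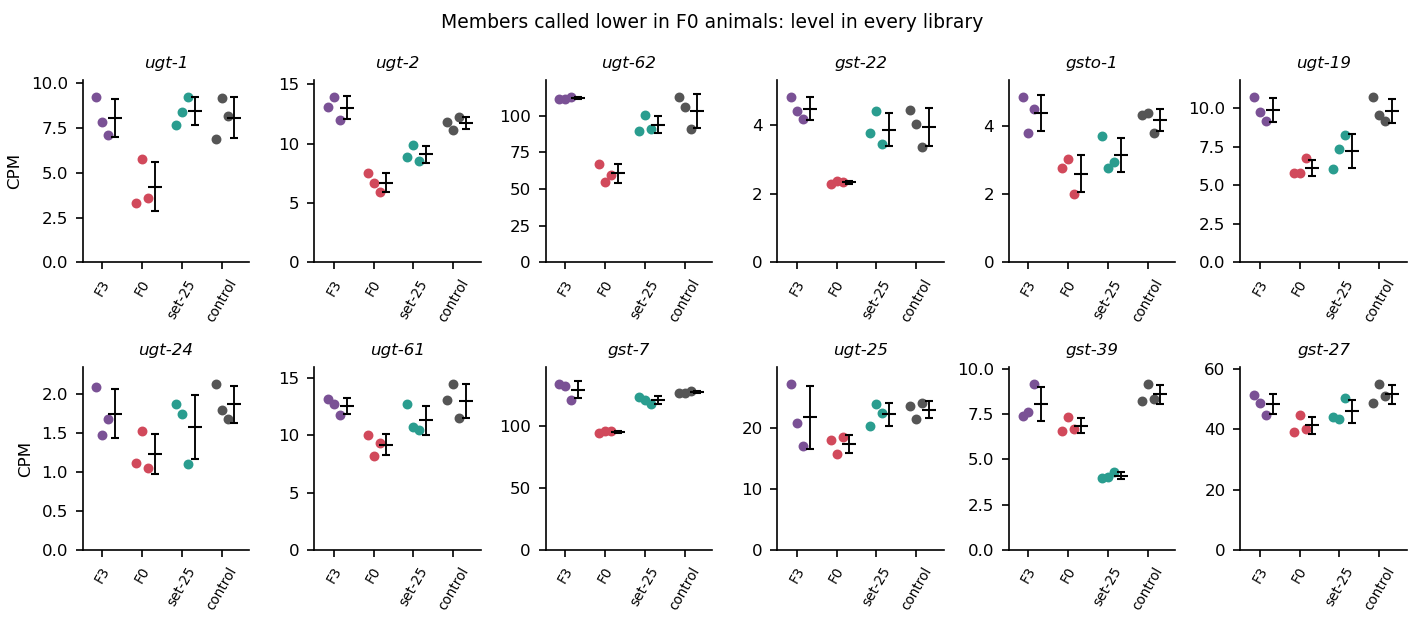
Level (CPM) of the 12 members with the largest called fall in F0 and a mean of at least 50 counts in control, in every library of the 4 groups. Points are libraries and bars are means with SD (n = 3). F0 libraries lie below all control libraries in each panel. F3 libraries overlap the control range in each panel.

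Among the members described in every comparison, gst-4, gst-1 and ugt-22 were also not called in F0. gst-4, a widely used reporter gene of SKN-1 activity, was at 17.4, 20.9 and 15.1 CPM in F0 and 14.8, 20.6 and 15.4 CPM in control (log2 fold change 0.07 ± 0.13 (SE), edgeR adjusted p = 0.747, 95% interval -0.22 to 0.35). It shares exon sequence on the same strand with dhs-12, which was at 59.8 CPM in F0 and 66.2 CPM in control. gst-1 was at 206, 201 and 202 CPM in F0 and 198, 198 and 200.3 CPM in control (log2 fold change 0.03 ± 0.05 (SE), edgeR adjusted p = 0.69, 95% interval -0.07 to 0.12). ugt-22, linked in worms to metabolism of the drug albendazole, was at 76.1, 92.7 and 83.9 CPM in F0 and 67.2, 98.4 and 67.6 CPM in control (log2 fold change 0.11 ± 0.15 (SE), edgeR adjusted p = 0.633, 95% interval -0.24 to 0.46). Control library 2 was above every F0 library for ugt-22.

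Summed over each family, F0 and control levels did not separate. All UGT genes together were at 837 ± 6.14 CPM in F0 and 816 ± 32.4 CPM in control, and all GST genes at 587 ± 25.3 CPM in F0 and 598 ± 12.5 CPM in control (SD, n = 3 each). The ranges overlapped in both families. The 20 UGT genes called higher summed to 260.0 CPM in F0 and 175 CPM in control, and the 10 called lower to 173 CPM in F0 and 249 CPM in control. The 6 GST genes called higher summed to 80.9 CPM in F0 and 50.8 CPM in control, and the 6 called lower to 171 CPM in F0 and 222 CPM in control. These sums follow from the calls and carry no test. ugt-62, ugt-22 and ugt-64 made up 25.4 ± 0.404% of all UGT counts in F0 and 30.3 ± 1.195% in control.

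In the Ensembl annotation, 54 of the 114 members lie in 16 runs of adjacent protein-coding genes, of which 11 held a member called in F0. Of the 6 runs with more than 1 called member, 4 had their calls in 1 direction and 2 in both. Differences between neighbours were not tested. The longest run has 9 GST genes from gst-20 to gst-18, of which 6 were tested and only gst-20 was called in F0. In the run ugt-5, ugt-4, ugt-6 and ugt-3, ugt-5 and ugt-6 were called higher (0.71 and 1.15), while ugt-4 between them was at -0.01 (SE 0.15). gst-6 and gst-7 are adjacent and were called in opposite directions (0.48 and -0.41). The gst-6 call was lost without some single libraries, as given above. ugt-26 was called higher while ugt-28 and ugt-25 in the same run were called lower, and the call of ugt-25 was lost without any 1 of the 6 libraries. ugt-43 and its neighbour ugt-44 were both higher, and ugt-1 and ugt-2 were both lower. In the run gst-26 to gst-31, 3 of 6 members were called lower and 0 higher.

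**Figure D4:**
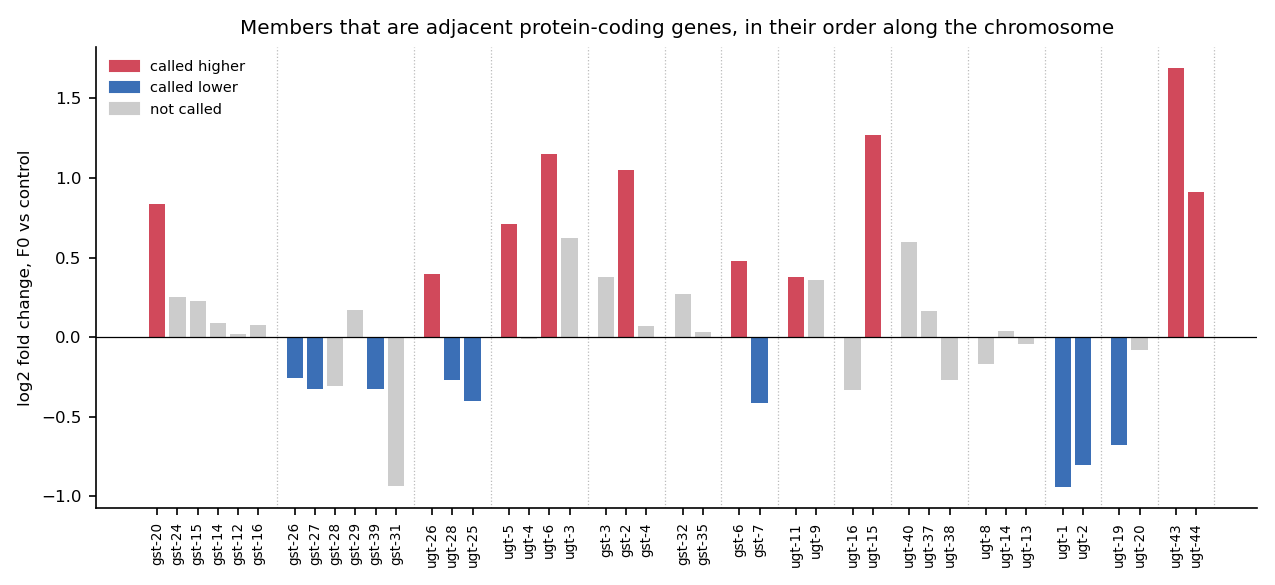
Log2 fold change in F0 against control (y axis) of tested members in runs of adjacent protein-coding genes with at least 2 tested members, in chromosomal order (x axis, dotted lines between runs). Red bars were called higher, blue bars lower and grey bars were not called. Bars of opposite colour stand side by side in the runs of gst-6 with gst-7 and of ugt-26 with ugt-28 and ugt-25.

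The F3 comparison asks whether differences seen at 25 °C were still present 3 generations after the return to 20 °C. No member was called in F3 against control, in either direction. Of all tested genes, 0.263% were called, 0.138% higher and 0.124% lower. By edgeR, 2 of the 99 members had an unadjusted p under 0.05, ugt-50 higher (log2 fold change 0.19) and gst-43 lower (-0.29), and the smallest adjusted p was 0.893. DESeq2 also called 0. Log2 fold changes ran from -0.80 to 0.98 with a median of 0.00. The 95% interval lay within 1 log2 unit on either side of 0 for 90 of 99 members, and its median half-width was 0.34. These intervals are not adjusted for the number of genes tested. Differences within them, and some larger ones, could go uncalled with 3 libraries a group.

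For each of the 24 members shown in the plots of F0 calls, the F3 and control ranges overlapped. These 24 were chosen by calls against the same control libraries. Of all 99 tested members, 10 had F3 and control ranges that did not overlap. The share over all tested genes was not computed. gst-10 was at 12.99, 10.8 and 11.7 CPM in F3 and 10.2, 13.2 and 12.5 CPM in control (log2 fold change -0.02 ± 0.10 (SE), edgeR adjusted p = 1). ugt-53 was at 3.75, 3.71 and 3.79 CPM in F3 and 2.77, 2.69 and 3.86 CPM in control (log2 fold change 0.27 ± 0.19 (SE), edgeR adjusted p = 1). ugt-62 was at 111, 111 and 112 CPM in F3 and 113, 106 and 90.7 CPM in control (log2 fold change 0.12 ± 0.08 (SE), edgeR adjusted p = 1). The F3 libraries of ugt-53 were near the top of the control range. gst-7 was at 134, 133 and 122 CPM in F3 and 127, 127 and 129 CPM in control (log2 fold change 0.02 ± 0.04 (SE), edgeR adjusted p = 1), and gst-22 at 4.83, 4.42 and 4.18 CPM in F3 and 4.44, 4.04 and 3.36 CPM in control (log2 fold change 0.18 ± 0.13 (SE), edgeR adjusted p = 1). The log2 fold changes of the other members described throughout were -0.04 for gst-1, -0.01 for gst-4, -0.11 for gst-5, -0.08 for gst-42, 0.07 for gsto-1, 0.07 for gstk-1 and -0.09 for ugt-22, each with an edgeR adjusted p of 1.

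Set directly against F0, F3 animals differed in 35 members, 11 higher and 24 lower (35.4% of the 99), where 30.4% of all tested genes were called, 13.1% higher and 17.3% lower. This comparison shares the F0 libraries with F0 against control, so the comparisons are not independent. UGT genes had 7 higher and 19 lower, and GST genes 4 higher and 5 lower. Of the 99 members, 11 were called at least 2-fold lower in F3 and 0 at least 2-fold higher, where 6.46% of all tested genes were called at least 2-fold lower and 1.07% at least 2-fold higher. Without the 4 members that depended on 1 group to pass the filter, 11 were higher and 23 lower, 10 of them at least 2-fold. The largest lower call with at least 50 counts in F0 was ugt-53, at 3.75, 3.71 and 3.79 CPM in F3 and 8.06, 12.8 and 8.78 CPM in F0 (log2 fold change -1.39 ± 0.17 (SE), edgeR adjusted p = 1.08e-05). ugt-43 (log2 fold change -1.30 ± 0.23 (SE), edgeR adjusted p = 0.000335) and ugt-32 (log2 fold change -1.26 ± 0.20 (SE), edgeR adjusted p = 0.000161) came next. gst-10 was at 12.99, 10.8 and 11.7 CPM in F3 and 26.3, 29.05 and 26.9 CPM in F0 (log2 fold change -1.21 ± 0.10 (SE), edgeR adjusted p = 9.75e-08). F3 libraries were below F0 libraries in all 4 genes. ugt-54, ugt-6, ugt-30, ugt-51, gst-20, ugt-44, ugt-5 and gst-43 completed the 12 largest with log2 fold changes of -1.16 to -0.55.

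Tissue markers also differed between F3 and F0, where 13.1% of all tested genes were called higher and 17.3% lower. All 8 tested sperm markers were lower in F3, at a summed 2.59 to 9.47 CPM in F3 and 38.7 to 53.5 CPM in F0. Whether they passed the filter only through F0 libraries was, again, not tested. Of the epidermal markers 6 were lower and 0 higher, at 1015 to 1224 CPM in F3 and 1506 to 1637 CPM in F0. Whichever library was left out, 4 of them were lower. Of the muscle markers 5 were lower and 0 higher, at 2795 to 3306 CPM in F3 and 3327 to 3666 CPM in F0. This count was 2 without F0 library 2 and 3 without F3 library 1, F3 library 3 or F0 library 1. Of the intestinal markers 4 were higher and 2 lower, at 2378 to 2630 CPM in F3 and 2104 to 2239 CPM in F0, with 1 lower without F3 library 2 or 3 or F0 library 1 or 2. Of the germline markers 3 were higher and 1 lower, at 4238 to 4751 CPM in F3 and 4227 to 4451 CPM in F0. With single libraries left out, 1 to 5 of these were higher, with 1 without F3 library 2 or 3 or F0 library 2 or 3 and 5 without F3 library 1, and 2 were lower without F3 library 2. None of the neuronal markers was called with all libraries. The part of these markers in the levels of UGT and GST genes was not tested.

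The highest members in F3 relative to F0 were ugt-2, at 13.1, 13.95 and 12 CPM in F3 and 7.53, 6.65 and 5.93 CPM in F0 (log2 fold change 0.96 ± 0.10 (SE), edgeR adjusted p = 1.32e-06), and gst-22, at 4.83, 4.42 and 4.18 CPM in F3 and 2.29, 2.39 and 2.34 CPM in F0 (log2 fold change 0.94 ± 0.14 (SE), edgeR adjusted p = 8.37e-05). ugt-62 was at 111, 111 and 112 CPM in F3 and 67.3, 54.9 and 59.5 CPM in F0 (log2 fold change 0.88 ± 0.08 (SE), edgeR adjusted p = 1.53e-05). All 3 were separated by group. ugt-1 (0.93), gsto-1 (0.76), ugt-19 (0.69), ugt-61 (0.45), gst-7 (0.44) and ugt-28 (0.38) were also higher and kept their calls when any library was left out. gst-27 (0.23) lost its call without F0 library 1 (0.20). ugt-12 (0.14) lost it without F3 library 2, without F0 library 1 or 3 and with no filter on low counts (0.13 to 0.15). Among the lower calls, those of gst-6, ugt-49, ugt-57, ugt-40 and ugt-15 were lost without single libraries. ugt-15 (-1.01) and ugt-40 (-0.84) lost the call without F0 library 1 and by DESeq2, at -1.0 to -0.62 and -0.83 to -0.73 over these fits. ugt-57 (-1.21), at 5 counts on average in F3 and 13.3 in F0, passed the filter only with its F0 libraries, where it was high, so its call supports nothing. It lost the call without F3 library 1 or 2 or any F0 library, with no filter and by DESeq2 (-1.26 to -1.05). gst-6 (-0.39) lost it without F3 library 1 or 2 or F0 library 1 or 2 (-0.39 to -0.30), and ugt-49 (-0.27) without F3 library 2 or 3 or F0 library 1 or 2 (-0.26 to -0.19). The gst-6 call was also lost by DESeq2, with no filter, with a replicate block and with only the 6 libraries compared. The ugt-49 call was also lost with only those 6. Both ranges include these fits.

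SET-25 is a methyltransferase acting on lysine 9 of histone H3, and the set-25 comparison asks what differs at 20 °C in animals with a mutation in its gene. ugt-64, gst-39, ugt-53 and gst-33 carried the steadiest differences. In all, 10 members were higher and 11 lower in set-25 than in control, which is 21.2% of the 99, where 17% of all tested genes were called, 8.9% higher and 8.14% lower, a share near that of other genes. UGT genes had 9 higher and 6 lower, and GST genes 1 higher and 5 lower. The median log2 fold change of members was 0.02. Only 4 of the 21 calls held in all 12 alternative fits, those of ugt-64, gst-39, ugt-53 and gst-33. With single libraries left out, 6 to 9 members were higher and 5 to 9 lower. The lowest counts came without set-25 library 1 or 3 (6 higher each), and without set-25 library 2 or control library 3 (5 lower each). Without set-25 libraries 1 and 3, which had the most ribosomal RNA, 3 were higher and 3 lower. That fit keeps 1 set-25 library, so fewer calls there cannot be told apart from the loss of libraries. The part of ribosomal RNA content in these calls was not tested.

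Some tissue markers were also called in set-25, where 8.9% of all tested genes were called higher and 8.14% lower. Of the intestinal markers 2 were higher and 1 lower, at a summed 2508 to 2639 CPM in set-25 and 2495 to 2544 CPM in control. Of the epidermal markers 0 were higher and 2 lower, at 995 to 1160 CPM in set-25 and 1248 to 1267 CPM in control. Of the germline markers 2 were higher and 2 lower, at 4524 to 4755 CPM in set-25 and 4546 to 4639 CPM in control. Of the neuronal markers 2 were higher and 1 lower, at 136 to 145 CPM in set-25 and 156 to 160.2 CPM in control. Of the muscle markers 1 was higher and 1 lower, at 3082 to 3625 CPM in set-25 and 2797 to 3109 CPM in control, and 0 of 8 tested sperm markers were called. The calls of gld-1 (0.35), mex-5 (0.37), glh-1 (-0.33), pho-1 (-0.32), snb-1 (-0.54) and lev-11 (-0.32) held in all 7 fits with set-25 or control libraries left out. The other marker calls were each lost in 1 or more of them. The part of these markers in the calls of UGT and GST genes was not tested.

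ugt-64 was the clearest difference. It was at 29.2, 31.2 and 30.5 CPM in set-25 libraries, against 64.4, 63.2 and 71.6 CPM in control libraries (log2 fold change -1.13 ± 0.05 (SE), edgeR adjusted p = 3.22e-10). No other group came near these low values, with 71.9, 67.4 and 69.1 CPM in F3 and 68.99, 67.8 and 66.7 CPM in F0. gst-39 was at 3.95, 4.02 and 4.31 CPM in set-25 and 8.25, 9.17 and 8.34 CPM in control (log2 fold change -1.08 ± 0.12 (SE), edgeR adjusted p = 7.59e-06). Both genes had every set-25 library below every library of the other 3 groups. ugt-53 was at 7.86, 7.36 and 6.28 CPM in set-25 and 2.77, 2.69 and 3.86 CPM in control (log2 fold change 1.23 ± 0.18 (SE), edgeR adjusted p = 0.000207). gst-33, with few counts, was at 1.06, 1.44 and 1.72 CPM in set-25 and 0.498, 0.757 and 0.498 CPM in control (log2 fold change 1.19 ± 0.27 (SE), edgeR adjusted p = 0.00605).

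Further calls in set-25 were lost when a single library, or libraries 1 and 3 together, were left out. ugt-32 was at 0.675, 0.569 and 0.739 CPM in set-25 and 1.46, 1.18 and 1.68 CPM in control (log2 fold change -1.16 ± 0.28 (SE), edgeR adjusted p = 0.00822). Without set-25 library 2, and without libraries 1 and 3, its edgeR adjusted p was above 0.05 (log2 fold changes -1.33 to -1.05). ugt-32 was also lower in set-25 than in F0 (log2 fold change -2.28 ± 0.26 (SE), edgeR adjusted p = 2.74e-06). ugt-47 was at 39.9, 37.3 and 46.04 CPM in set-25 and 26.3, 29.4 and 26.9 CPM in control (log2 fold change 0.56 ± 0.10 (SE), edgeR adjusted p = 0.00243), and ugt-54 at 1.16, 1.52 and 2.09 CPM in set-25 and 0.711, 0.617 and 0.623 CPM in control (log2 fold change 1.2 ± 0.29 (SE), edgeR adjusted p = 0.00819). Both lost the call only without libraries 1 and 3 (0.44 and 1.22). ugt-51 was at 2.89, 4.36 and 3.45 CPM in set-25 and 1.99, 2.08 and 1.49 CPM in control (log2 fold change 0.96 ± 0.23 (SE), edgeR adjusted p = 0.00871), and lost the call without set-25 library 2 (0.72). gst-26 was at 22.8, 20 and 23.6 CPM in set-25 and 25.8, 26.8 and 26.3 CPM in control (log2 fold change -0.27 ± 0.07 (SE), edgeR adjusted p = 0.0152), and lost it without set-25 library 2 (-0.20). ugt-19 was at 6.07, 7.36 and 8.25 CPM in set-25 and 10.7, 9.56 and 9.22 CPM in control (log2 fold change -0.47 ± 0.12 (SE), edgeR adjusted p = 0.0107), and lost it without set-25 library 1 or without libraries 1 and 3 (-0.42 to -0.36).

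**Figure D5:**
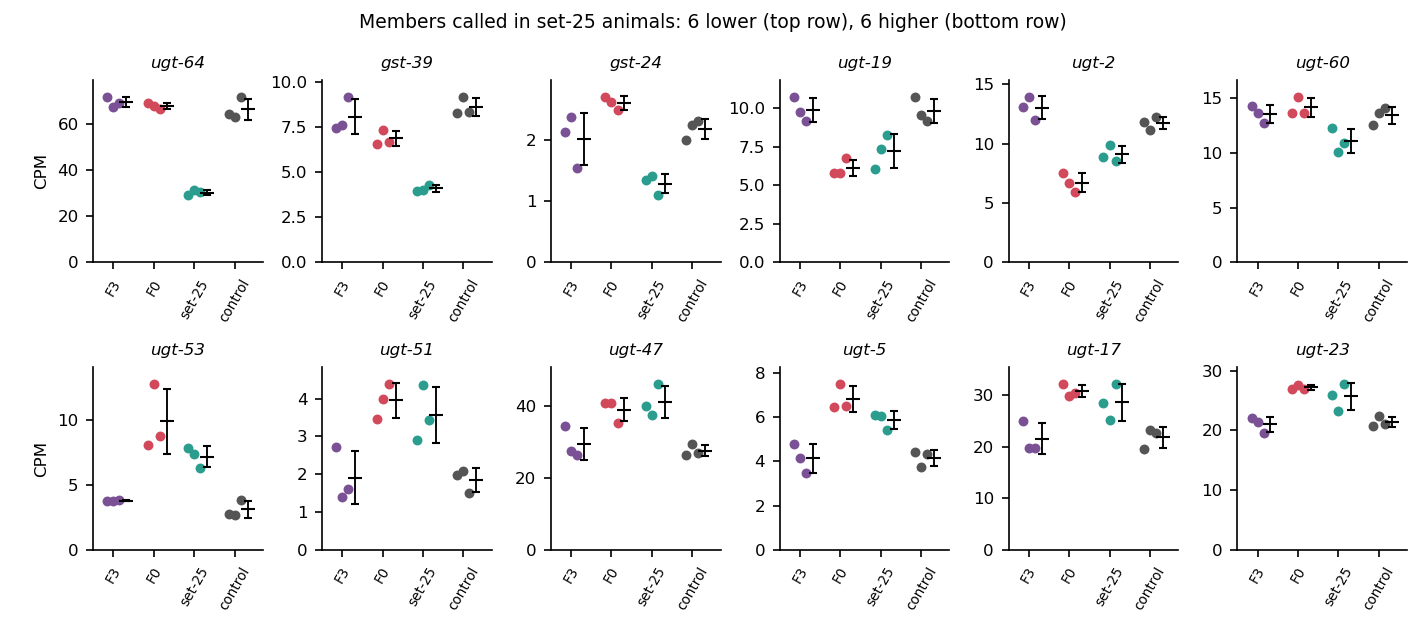
Level (CPM) of 6 members called lower (top row) and 6 called higher (bottom row) in set-25 animals, those with the largest fold change and a mean of at least 50 counts in the higher group, in every library. Points are libraries and bars are means with SD (n = 3). The set-25 libraries of ugt-64 lie at about 30 CPM, below all libraries of the other 3 groups.

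The other 11 calls in set-25 were lost without any 1 of 3 to 5 libraries. The ranges given for them cover every alternative fit that lost the call. The fit without set-25 libraries 1 and 3 is among these for each gene. DESeq2 and a replicate block also ended the calls of ugt-60 and gst-5, and DESeq2 and no filter that of ugt-43. ugt-5 was at 6.12, 6.07 and 5.42 CPM in set-25 and 4.41, 3.76 and 4.36 CPM in control (log2 fold change 0.51 ± 0.14 (SE), edgeR adjusted p = 0.0151). It lost the call without set-25 library 1 or 2 or control library 2 (0.43 to 0.54 over fits that lost it). ugt-17 was at 28.5, 25.1 and 32.1 CPM in set-25 and 19.5, 23.3 and 22.6 CPM in control (log2 fold change 0.36 ± 0.10 (SE), edgeR adjusted p = 0.0243), and lost it without set-25 library 1 or 3 or control library 1 (0.20 to 0.35). ugt-23 was at 25.98, 23.3 and 27.8 CPM in set-25 and 20.8, 22.4 and 21.1 CPM in control (log2 fold change 0.24 ± 0.07 (SE), edgeR adjusted p = 0.0236). ugt-2 was at 8.87, 9.903 and 8.49 CPM in set-25 and 11.8, 11.2 and 12.2 CPM in control (log2 fold change -0.35 ± 0.10 (SE), edgeR adjusted p = 0.0274). These 2 lost their calls without set-25 library 1 or 3 or control library 1 or 3. Over all fits that lost the call, log2 fold changes were 0.12 to 0.22 for ugt-23 and -0.35 to -0.25 for ugt-2. ugt-60 was at 12.2, 10.02 and 10.8 CPM in set-25 and 12.5, 13.6 and 14.04 CPM in control (log2 fold change -0.28 ± 0.09 (SE), edgeR adjusted p = 0.0427), and ugt-45 at 17.98, 16.9 and 16 CPM in set-25 and 19.7, 21.1 and 19.7 CPM in control (log2 fold change -0.24 ± 0.07 (SE), edgeR adjusted p = 0.0303). Both lost the call without set-25 library 2 or 3 or control library 2 or 3. Log2 fold changes over all fits that lost it were -0.42 to -0.21 for ugt-60 and -0.26 to -0.21 for ugt-45. gst-24 was at 1.35, 1.404 and 1.11 CPM in set-25 and 1.99, 2.24 and 2.304 CPM in control (log2 fold change -0.72 ± 0.20 (SE), edgeR adjusted p = 0.02). Leaving out any set-25 library, or control library 2 or 3, ended that call (-0.79 to -0.64). The call of ugt-37 was lost without any 1 of the same 5 libraries (1.24, with 1.04 to 1.27 over fits that lost it). Exons of ugt-37 overlap ugt-40 on the same strand. ugt-43 (0.84) lost its call without set-25 library 1 or 3 or any control library (0.47 to 0.92).

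The most abundant GST gene showed a small difference in set-25. gst-1 was at 178, 173 and 186 CPM in set-25 and 198, 198 and 200.3 CPM in control (log2 fold change -0.15 ± 0.05 (SE), edgeR adjusted p = 0.0301), and lost its call without set-25 library 1 or 2 or any control library (-0.20 to -0.14). gst-5 was at 12.05, 14.2 and 12.8 CPM in set-25 and 15.5, 16.04 and 15.9 CPM in control (log2 fold change -0.27 ± 0.09 (SE), edgeR adjusted p = 0.042), and lost it without set-25 library 1 or 3 or any control library (-0.29 to -0.16). Its exons overlap nos-1 on the other strand, a gene at 43.99 CPM in set-25 and 45.6 CPM in control that was not called. In both genes all set-25 libraries were below control, and the ranges given cover every alternative fit that lost the call. gst-4 was at 12.9, 12.1 and 13.4 CPM in set-25 and 14.8, 20.6 and 15.4 CPM in control and missed the threshold (log2 fold change -0.42 ± 0.15 (SE), edgeR adjusted p = 0.0664), although fits by DESeq2 (adjusted p = 0.034), to the 6 libraries compared (0.0282), without the filter (3.7e-05) and without control library 1 (0.0393) called it. Over its 12 alternative fits the adjusted p was between 3.7e-05 and 0.29. Its same-strand neighbour dhs-12 was called lower, at 55.9 CPM in set-25 and 66.2 CPM in control. gsto-1 (-0.40), gst-42 (-0.15), gst-7 (-0.07), gstk-1 (0.10), gst-10 (0.21) and ugt-22 (0.27) were not called. All GST genes together were at 547 ± 8.76 CPM in set-25 and 598 ± 12.5 CPM in control (SD, n = 3 each), with ranges of 538 to 555 CPM in set-25 and 584 to 608 CPM in control that did not overlap. These sums carry no test. All UGT genes together were at 819 ± 8.40 CPM in set-25 and 816 ± 32.4 CPM in control.

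F0 and set-25 share their control libraries, so their values are set side by side without a test of likeness. The log2 fold changes against control were 1.66 in F0 and 1.23 in set-25 for ugt-53, and 1.53 in F0 and 1.2 in set-25 for ugt-54. They were 1.09 in F0 and 0.96 in set-25 for ugt-51, and 0.50 in F0 and 0.56 in set-25 for ugt-47. For ugt-19 they were -0.68 in F0 and -0.47 in set-25, and for gst-39 -0.33 in F0 and -1.08 in set-25. For ugt-32 the signs were opposite, 1.12 in F0 and -1.16 in set-25. ugt-64 was at 0.03 in F0 and -1.13 in set-25, and gst-10 at 1.19 in F0 and 0.21 in set-25.

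Genes that supply the co-substrates were mixed in F0. Of 28 tested genes of glutathione and UDP-sugar supply and of related redox enzymes, 8 were higher and 6 lower, with a median log2 fold change of -0.08. Of all tested genes, 16.7% were called higher and 12% lower. With single libraries left out, 5 to 6 were higher and 3 to 5 lower. gcs-1, the rate-limiting enzyme of glutathione synthesis, was higher by 0.17 ± 0.04 on the log2 scale (SE). cbs-1 and cth-2, which make cysteine, were higher at 0.44 and 0.42. trx-3, a thioredoxin, and gpx-4, a glutathione peroxidase homologue, were higher at 1.51 and 1.17. sqv-4, which makes UDP-glucuronate, was lower at -0.22 ± 0.04 (SE). In set-25, 0 of the 28 were higher and 3 lower, with 0 to 2 lower when single libraries were left out. There, 8.9% of all tested genes were called higher and 8.14% lower. In F3, 0 of the 28 were called.

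Genes listed as regulators of the detoxification genes were also read in each group. In F0, 2 of 19 tested were higher and 3 lower, where 28.7% of all tested genes were called. With single libraries left out, 1 to 2 were higher and 2 to 4 lower. pha-4 (0.62) lost its call without control library 1 or 3, and nhr-8 (-0.35) without F0 library 1. The other higher gene, alh-6 (0.46), encodes an aldehyde dehydrogenase and is also counted among the dhs and alh genes. egl-9, the hydroxylase that marks HIF-1 for degradation, was lower at -0.61 and hif-1 itself at -0.17, while skn-1 was not called at -0.02 ± 0.04 (SE). In set-25, 10 of 19 were higher and 1 lower, where 17% of all tested genes were called, with 9 to 10 higher and 0 to 1 lower when single libraries were left out. The lower one, alh-6 (-0.28), lost its call without set-25 library 2. Among those higher were skn-1 (0.32 ± 0.04), the FOXO factor gene daf-16 (0.62 ± 0.05), gsk-3 (0.61 ± 0.08), whose kinase restrains SKN-1, nsy-1 (0.56 ± 0.07) of the p38 pathway and the Mediator subunit gene mdt-15 (0.43 ± 0.05), all in log2 with SE. These 5 and hif-1 (0.24) were still called without set-25 libraries 1 and 3, when 6 of the list were higher and 0 lower. In F3, 0 of 19 were called.

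ABC transporter genes named pgp, mrp, haf or cft were more often lower than higher in F0. Of 31 tested, 15 were lower and 6 higher, where 12% of all tested genes were called lower and 16.7% higher. The median log2 fold change was -0.18. With single libraries left out, 12 to 15 were lower and 3 to 6 higher. The largest falls were in pgp-1 (-1.18), pgp-9 (-0.84), haf-1 (-0.64), pgp-12 (-0.64) and mrp-2 (-0.59), and the largest rises in pgp-10 (1.34) and pgp-7 (0.71). pgp-1 is also on the list of intestinal markers. Their summed level was 1349 to 1379 CPM in F0 and 1459 to 1515 CPM in control. In set-25, 3 were lower and 0 higher, where 8.14% of all tested genes were called lower and 8.9% higher. Only haf-9 (-0.33) kept its call whichever library was left out. In F3, 0 transporter genes were called.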

How the data were processed

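Per the labels' protocols, stranded total RNA libraries were made from whole gravid adults after depletion of ribosomal RNA, without selection for poly(A). The authors deposited 1 table of estimated counts per gene and per single repeat copy, made from paired-end reads and not normalized. The submitters' processing notes name TopHat2 2.1.0, featureCounts 1.5.1 and DESeq2 1.8.1 without saying what each did. The genome build, the annotation, whether counting used strand and how reads with several matches were handled were not given in the sources used here. All sample columns matched a label (0 unused).

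Expected counts were rounded to whole numbers, a step the planned test on counts had not foreseen. Gene rows were fitted with edgeR 4.0.16 in R 4.3.3 (quasi-likelihood, robust, TMM scaling, filterByExpr by group), all 12 libraries in 1 fit with a term per group. Two-sided tests had p-values adjusted by Benjamini-Hochberg over the 14466 genes tested, and genes under 0.05 are described as called. The fit was checked on simulated counts for F0, F3 and set-25 against control. It recovered 53.1 to 62.5% of changes simulated at 1.5-fold, 77.8 to 82.5% at 2-fold and 90.3 to 92.3% at 4-fold. False calls numbered 6 to 17 per comparison. SE is the log2 fold change divided by the root of its F statistic. Exon lengths, neighbours and overlaps came from Ensembl 115, matched by name, and no positions are printed.

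Described with every library were, per comparison, up to 12 called members in each direction by fold change with a mean of at least 50 counts in the higher group, 10 members described throughout and the 5 highest per length in control. Other called members are named with values. The members, lists and this rule were chosen with earlier results of these data known. Alternatives were RLE scaling, DESeq2 1.42.0, no filter on low counts, only the 6 libraries compared, a replicate block and leaving out libraries. Leaving out libraries for the pathway and marker lists, and counts without members that depended on 1 group to pass the filter, were added after seeing the data.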

Additional observations from a re-analysis of the deposited data

How the results depend on the processing

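No called UGT or GST gene changed direction in any fit tried. All fits reuse the same libraries and the genes were chosen by their calls, so this is no independent support. Calls held in all alternatives for 29 of 42 members in F0 against control, 28 of 35 in F3 against F0 and 4 of 21 in set-25 against control. Fits without a library have fewer libraries, and whether a lost call reflects this or that library was not tested. Leaving out single libraries gave 19 to 23 higher and 12 to 16 lower in F0 against control, 9 to 14 higher and 20 to 23 lower in F3 against F0, and 0 throughout in F3 against control. In set-25 against control it gave 6 to 9 higher, against 10 with all libraries, and 5 to 9 lower, against 11. Without set-25 libraries 1 and 3 there were 3 higher and 3 lower, a fit with 1 set-25 library that is assumed to vary like the other groups. RLE scaling, DESeq2, no filter on low counts and fits to 6 libraries left every count of called members within 1.5 times its value. Single members still lost their calls in some of these fits, as given above. Replicate numbers were not used to pair samples in the main fit. Same-numbered deviations correlated at 0.0165 to 0.136 between F0 and control and -0.161 to -0.0430 between set-25 and control. They correlated at -0.135 to -0.00633 between F3 and control and -0.0541 to 0.0788 between F3 and F0. Differently numbered libraries were not set beside them, so these values do not settle whether samples were paired. With a replicate block, 24 members were higher and 15 lower in F0, 11 higher and 9 lower in set-25, 0 in F3, and 11 higher and 23 lower in F3 against F0. Precision is limited by 3 libraries a group and, for members under 1 CPM, by counts.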

Other observations

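Dehydrogenase and aldehyde dehydrogenase genes (dhs and alh) and sulfotransferase genes (ssu), which act on some of the same small molecules as the conjugating enzymes, were mixed in F0. Of 43 tested, 12 were higher and 10 lower in F0 than in control, with a median log2 fold change of 0.07. Of all tested genes, 16.7% were called higher and 12% lower. With single libraries left out, 8 to 12 were higher and 4 to 10 lower. The largest rises, kept whichever library was left out, were in dhs-26 (log2 fold change 1.62), dhs-4 (1.21), dhs-8 (1.08) and dhs-2 (1.07), and dhs-25 fell by 0.84 on the log2 scale. In set-25 against control, 4 were higher and 4 lower, and without set-25 libraries 1 and 3 it was 1 higher and 1 lower. dhs-21 (0.53) and alh-8 (-0.28) kept their calls in every one of those fits. With all libraries, 8.9% of all tested genes were called higher and 8.14% lower in set-25. In F3, 0 of 43 were called by edgeR.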
